A study of Mus musculus with 8 samples.

Results

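The genes described here are 36 mouse genes of the amino acid response, the transcriptional programme run by the transcription factor ATF4. They are listed by name from 3 groups of genes, namely the ATF4 pathway, amino acid synthesis and amino acid transport. The list uses no threshold on a measured value, but it was drawn up with earlier results of these data known. All 36 were found among the 54532 genes of the deposited table. The tests covered 12994 genes that reached 1 FPKM in at least 2 libraries, and 35 of the 36 genes were among them. FPKM scales reads to exon length and library depth, but differences within the EphrinB2 pairs still followed exon length, as given below. The gene that was not tested is Slc7a3.

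The study sequenced RNA of cardiac fibroblasts of the mouse, which make the connective tissue of the heart, at day 7. The cells carried a vector or overexpressed EphrinB2, the product of Efnb2 and a surface ligand for Eph receptors. Cells of either kind grew in complete medium or were induced towards osteogenic differentiation. The 4 groups are thus vector complete, vector osteogenic, EphrinB2 complete and EphrinB2 osteogenic, each with 2 libraries of total RNA. The composition of either medium, the kind of vector, its promoter, the strain and age of the mice and whether cells of several animals were pooled are not stated in the labels. No label says that libraries of 1 group are separate cultures, so p-values cover only the spread among the libraries, which may be technical.

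Cells phosphorylate the translation factor eIF2 through a set of kinases that sense uncharged tRNA, unfolded protein in the endoplasmic reticulum, viral RNA or lack of heme. General protein synthesis then slows, while upstream reading frames in the Atf4 message let ATF4 protein be made, so the level of Atf4 mRNA does not report the level of the protein. With C/EBP partners, ATF4 binds composite C/EBP-ATF elements and raises genes that make, import and charge amino acids, together with genes that restrain the response.

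A core of such an element can be read in promoters as TGATGNAA, where N is any base, and its reverse complement. RefSeq windows on GRCm38.p6 from 250 bases before to 50 after an annotated start were at hand for 31 of the 36 genes, and 10 of the 31 (32.3%) hold the 8 bases on either strand. Of all 27025 genes with such a window, 1219 (4.51%) hold them. The 8 genes with a match wholly before the start are printed here, 5′ to 3′ on the strand of the gene, with the matched bases in capitals, because they put genes that fell in osteogenic medium beside genes with a match that did not pass the test in the fit of all 8 libraries.
Chac1 chr2:119351025-119351080 (+): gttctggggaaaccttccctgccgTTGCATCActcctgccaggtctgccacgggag
Pycr1 chr11:120643820-120643875 (-): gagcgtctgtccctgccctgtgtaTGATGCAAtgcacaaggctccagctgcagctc
Vldlr chr19:27216809-27216838 (+): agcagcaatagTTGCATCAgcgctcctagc
Asns chr6:7693214-7693243 (-): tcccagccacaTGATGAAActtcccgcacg
Slc7a11 chr3:50443629-50443703 (-): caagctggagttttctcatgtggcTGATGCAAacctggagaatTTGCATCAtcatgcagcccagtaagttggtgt
Atf3 chr1:191183412-191183467 (-): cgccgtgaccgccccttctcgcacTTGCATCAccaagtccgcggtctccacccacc
Got1 chr19:43524676-43524731 (-): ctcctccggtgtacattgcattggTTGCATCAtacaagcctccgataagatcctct
Nupr1 chr7:126625562-126625591 (-): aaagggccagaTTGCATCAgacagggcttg

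By the GENCODE annotation, the stretches of Chac1, Pycr1, Slc7a11 and Got1 lie outside the gene, that of Atf3 in an intron, and those of Vldlr, Asns and Nupr1 in an annotated exon. Slc7a11, the cystine importer, holds the core in both orientations, with 11 bases between them. Chac1, Pycr1 and Vldlr fell in osteogenic medium in vector cells, in EphrinB2 cells and averaged over both. Asns and Slc7a11 fell in EphrinB2 cells and averaged. Atf3, Got1 and Nupr1 hold a match as well and passed in no medium comparison of the fit of all 8 libraries. In a fit of the 4 vector libraries alone Atf3 (-0.47, adjusted p = 0.0314 in limma) and Nupr1 (-0.74, adjusted p = 0.00238) also fell, while Got1 (-0.095, adjusted p = 0.205) did not pass. The matches of Trib3 and Slc1a4 reach into or past the start and are not printed. A match is a description of the letters and was not tested as a binding site.

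Efnb2 checks the labels. Its level was 6.30 and 5.56 FPKM in vector complete and 1.39 and 1.27 in vector osteogenic libraries. In EphrinB2 cells it was 31.3 and 32.8 FPKM in complete and 5.02 and 18.3 in osteogenic medium. Each EphrinB2 library was above both vector libraries of its medium, but the log2 difference of 2.26 (SE 0.48) in complete medium had an adjusted p of 1.0 in limma. In osteogenic medium it was 2.21 (SE 0.48, adjusted p = 0.567). Estimated depth was 16493965 to 20550769 counted reads a library. The FPKM values summed to 360626 in EphrinB2 osteogenic replicate 1 and to between 253613 and 269809 in each other library. Fibroblast markers were the most abundant of the marker lists in complete medium, where their summed level was 4463 to 5427 FPKM, against 2284 to 2357 in osteogenic medium. Of the 10 fibroblast markers, 4 fell and 1 rose. Macrophage markers summed to 848 to 2085 FPKM in complete and 4057 to 8136 in osteogenic medium, and 11 of 12 rose in the comparison averaged over both kinds of cell. Cardiomyocyte markers summed to 0.694 to 0.937 FPKM in complete and 6.04 to 15.5 in osteogenic medium. Of these 8 markers 1, Tnnt2, reached the level for testing and rose, and it made up 5.46 to 14.8 FPKM of the osteogenic sums. Actn2 was at 0 in every library, and Myh6, Myh7, Ryr2, Myl2 and Nppa stayed at or near 0. The part of these shifts in the results on the amino acid response genes was not tested, and in bulk RNA fewer cells of a type and less RNA per cell cannot be told apart.

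In the EphrinB2 groups the libraries of a pair differed more than in the vector groups. EphrinB2 complete replicate 2 was more distant than replicate 1 from the mean of the vector complete libraries for 29 of the 35 genes, with a median distance of 0.38 against 0.16 on the log2 scale. EphrinB2 osteogenic replicate 1 was likewise more distant than replicate 2 from the vector osteogenic mean for 29 of 35, with 0.43 against 0.094. These are called here the libraries that stood apart, and the main results are given with and without them. Because the EphrinB2 libraries left in are those closer to the vector libraries, leaving these out draws EphrinB2 values towards vector ones by construction. Across the 35 genes the median absolute difference between partners was 0.076 in vector complete, 0.093 in vector osteogenic, 0.42 in EphrinB2 complete and 0.38 in EphrinB2 osteogenic medium. In the EphrinB2 pairs that difference followed exon length, with Spearman's rho of 0.65 and 0.63 over the 35 genes, against -0.20 and -0.30 in the vector pairs. Over 12990 genes tested, rho was 0.44 and 0.51 in the EphrinB2 pairs, against 0.037 and -0.018 in the vector pairs. These rho values describe genes that share the same libraries. Atf4, with 2358 bases of exon, was lower in replicate 2 by 1.18 in complete and 0.79 in osteogenic medium on the log2 scale. Slc7a1, with 11530 bases, was higher in replicate 2 by 0.61 and 0.73.

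**Figure D1:**
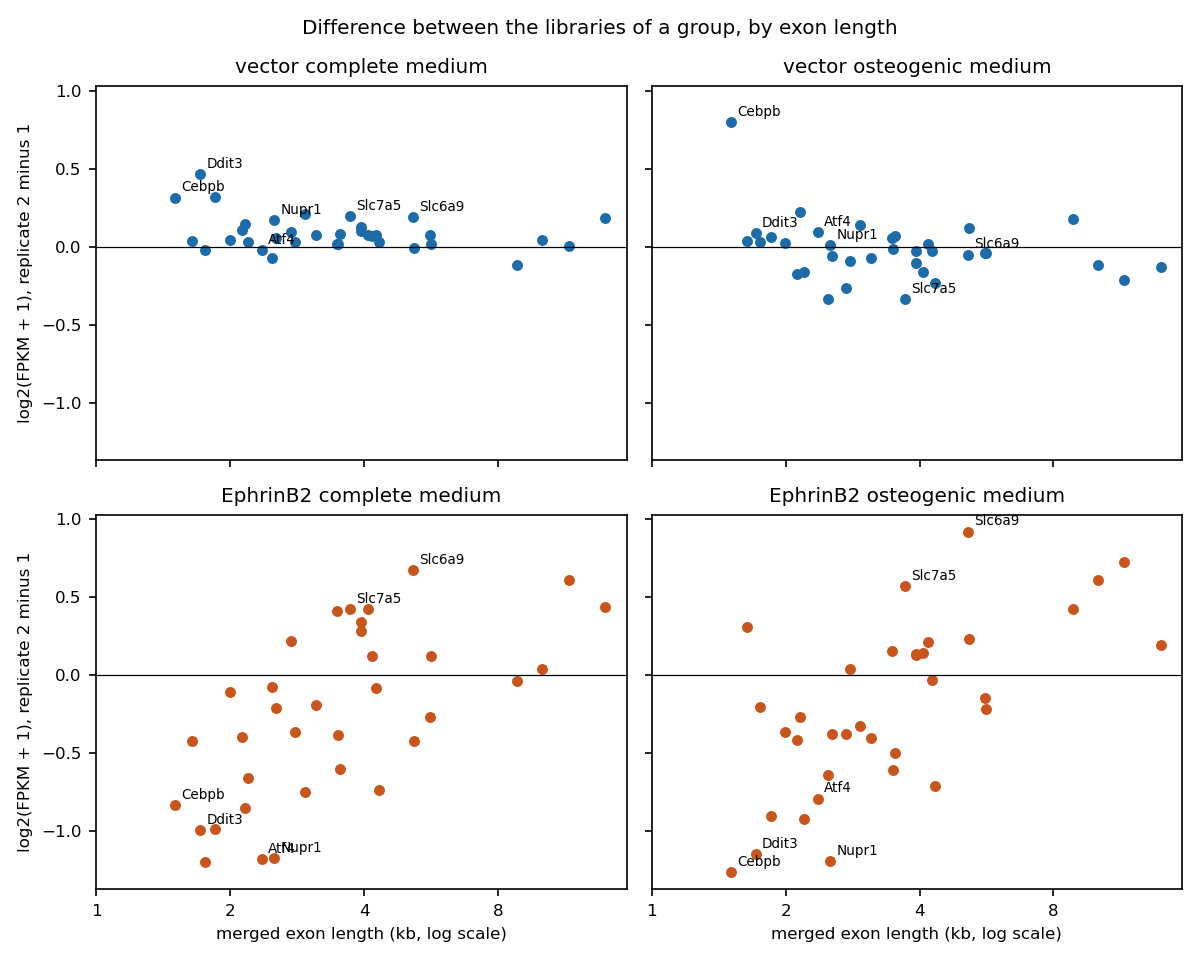
Difference in log2(FPKM + 1) between replicate 2 and replicate 1 of each group (vertical axis) against merged exon length in kb on a log scale (horizontal axis), 1 point for each of the 35 genes. Most vector points lie near 0, and in both EphrinB2 panels short genes such as Atf4 lie below 0 and long genes such as Slc6a9 above it.

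In vector cells, 8 of the 35 genes fell and 2 rose in osteogenic medium, as called by limma at an adjusted p under 0.05 over all 12994 genes. The 8 are Pycr1, Slc7a5, Vldlr, Chac1, Slc1a4, Phgdh, Trib3 and Mthfd2, which serve proline and serine synthesis, mitochondrial folate metabolism, amino acid import, lipoprotein uptake and feedback. The 2 that rose are Slc1a5, a glutamine transporter, and Stc2, a secreted glycoprotein. Fallen genes made up 22.9% of the 35 against 3.11% of all genes tested, and risen genes 5.71% against 4.41%. The median log2 fold change was -0.56 over the 35 genes and -0.02 over all genes tested. The calls rested on each vector library. With any 1 of the 4 vector libraries left out they were lost in limma, and fewer of all genes tested passed as well. Such a fit leaves 1 library in a group and has 3 residual degrees of freedom in place of 4. In these fits the median log2 fold change lay between -0.62 and -0.54 over the 35 genes and stayed at -0.02 over all genes tested.

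The model assumes 1 spread for all groups, and the vector libraries were closer to each other than the EphrinB2 libraries. In a fit of the 4 vector libraries alone, 26 of the 35 genes fell and 5 rose (74.3% and 14.3%), against 22.1% and 18.5% of all genes tested. The 10 genes called with all libraries were among them. So were 11 genes that the comparison averaged over both kinds of cell does not call, namely Atf3, Atf4, Cebpg, Cth, Ddit3, Eif4ebp1, Gdf15, Nupr1, Psph, Slc3a2 and Slc6a9, of which Cebpg rose and the others fell. The vector libraries of the 2 media did not overlap for 27 genes that were lower (77.1%, against 38.8% of all genes tested) and 5 that were higher (14.3%, against 34.4%).

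In EphrinB2 cells, 12 of the 35 genes fell and 2 rose, 34.3% and 5.71% of the genes against 5.44% and 6.36% of all genes tested. Slc7a5, Pycr1, Vldlr, Slc1a4, Chac1, Slc7a1, Aldh18a1 and Phgdh had the largest falls on the scale of log2(FPKM + 1). Trib3, Slc7a11, Sesn2 and Asns were the other 4. That scale shrinks changes of low genes such as Slc7a11. The mean of Slc7a11 went from 1.66 to 0.327 FPKM, the largest fall by factor of the 12. Slc1a5 and Stc2 rose again. The median log2 fold change was -0.39 over the 35 genes and 0.03 over all genes. The EphrinB2 libraries of the 2 media did not overlap for 18 genes that were lower (51.4%, against 23.6% of all genes tested) and 7 of the 35 that were higher, against 24.3%. Without the libraries that stood apart, which leaves 1 EphrinB2 library for each medium, assumed to vary like the other groups, 21 genes fell and 4 rose, against 15.7% and 14.0% of all genes tested. Of the 14 genes called with all libraries, 13 were among these, and Slc7a11 was not. In a fit of the 4 EphrinB2 libraries alone none of the 35 passed in limma, against 0.323% lower and 0.854% higher calls among all genes tested. At the looser limit of an unadjusted p under 0.05, 13 of the 35 were lower and 4 higher in that fit. The share of all genes tested at that looser limit is not given here, so the count cannot be set against it. In that fit the smallest adjusted p of the 35 was 0.0531, for Pycr1. Fewer of the 35 genes, and fewer of all genes tested, were called without any 1 of the 4 vector libraries or without EphrinB2 complete replicate 2. The median log2 fold change over the 35 genes was then -0.39 and -0.53.

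Of the 10 genes called in vector cells and the 14 called in EphrinB2 cells, 9 were called in both, in the same direction. That is 25.7% of the 35 genes, against 6.48% of all genes tested. Over all genes tested, 842 of the 977 called in vector cells (86.2%) were called in EphrinB2 cells in the same direction, so a shared call was common beyond the 35 genes. The comparisons use different libraries but 1 estimate of the spread. The comparison averaged over both kinds of cell called 20 of the 35 genes, of which 16 fell and 4 rose (45.7% and 11.4%). Of all genes tested, 9.44% fell and 10.3% rose. The median was -0.36 over the 35 genes and 0.01 over all genes. Without the libraries that stood apart, 26 fell and 5 rose, against 25.7% and 22.5% of all genes tested, and the 20 genes called with all libraries were among them. With any 1 vector library left out 13 genes stayed called, and Atf5, Ddit4, Gpt2, Psat1, Sesn2, Shmt2 and Slc7a1 lost the call. In those fits 4.09% to 4.28% of all genes tested fell and 5.13% to 5.40% rose. Fold changes and counts of genes that rose or fell below are from the averaged comparison on the scale of log2(FPKM + 1), with the standard error (SE) of the limma model, unless a kind of cell or a fit is named.

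**Figure D2:**
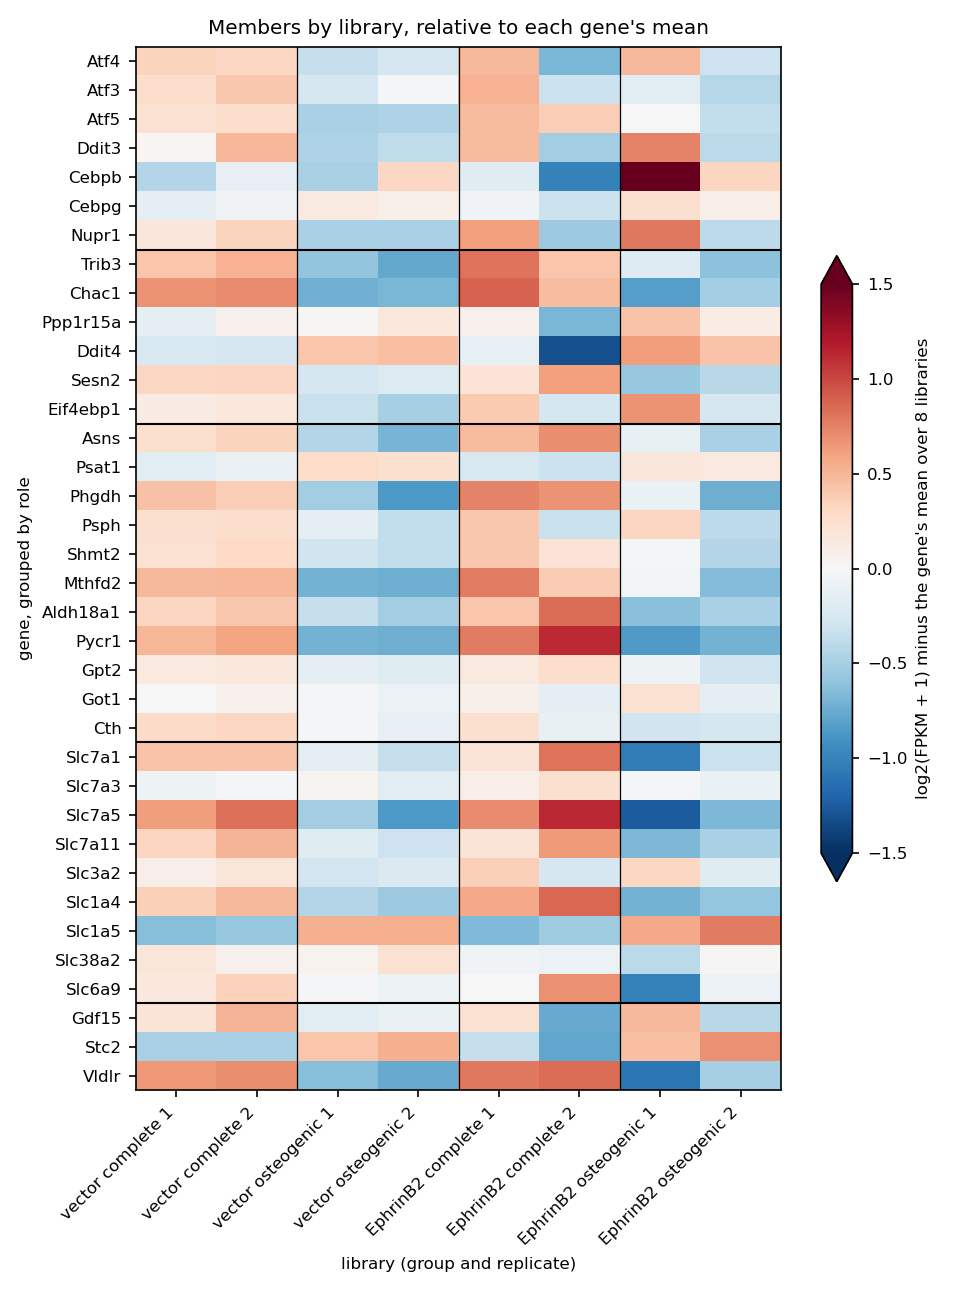
Level of each of the 36 genes (rows, grouped by role and divided by lines) in each of the 8 libraries (columns), as log2(FPKM + 1) minus the gene's mean over the 8 libraries with red above and blue below the mean. Genes such as Pycr1, Slc7a5, Chac1 and Vldlr are red in the 4 complete libraries and blue in the 4 osteogenic ones, Slc1a5 and Stc2 show the reverse, and Atf4, Ddit3 and Nupr1 differ between the libraries of an EphrinB2 pair.

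**Figure D3:**
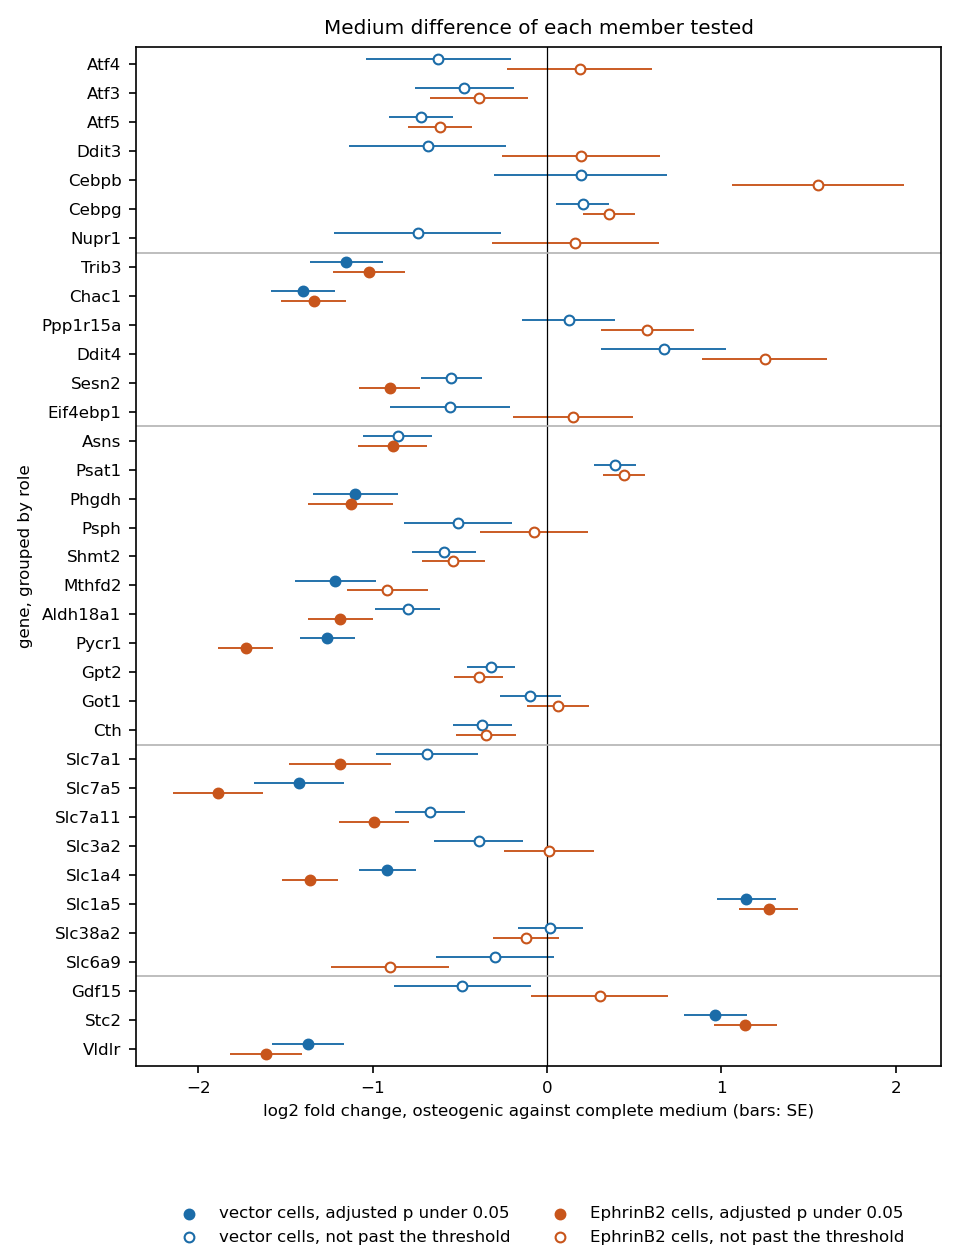
Log2 fold change of osteogenic against complete medium (horizontal axis, bars are SE) for the 35 genes tested, in vector cells (blue) and EphrinB2 cells (orange), with filled points past an adjusted p of 0.05. Filled points lie mostly below 0, and Slc1a5 and Stc2 are the only filled points above it.

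Among the 7 transcription factors, 1 fell in the averaged test, Atf5 (14.3%, against 9.44% of all genes tested), and none rose, against 10.3%. None of the 7 passed within either kind of cell in the fit of all 8 libraries. In the fit of the 4 vector libraries alone 5 of the 7 fell and 1, Cebpg, rose, against 22.1% and 18.5% of all genes tested. Atf4 (chr15:80255184-80257541, plus strand, GRCm38), the factor that gives the programme its name, had 90.6 and 89.3 FPKM in vector complete and 56.2 and 60.0 in vector osteogenic libraries. The EphrinB2 libraries showed 101 and 44.1 FPKM in complete and 101 and 57.8 in osteogenic medium. Both vector osteogenic libraries were below both vector complete libraries, whereas in EphrinB2 cells replicate 1 was high and replicate 2 low in each medium. The log2 fold change of Atf4 was -0.62 (SE 0.42, adjusted p = 0.527) in vector cells, 0.19 (SE 0.42, adjusted p = 0.766) in EphrinB2 cells and -0.22 (SE 0.29, adjusted p = 0.642) averaged. In the fit of the 4 vector libraries alone Atf4 fell by 0.62 (adjusted p = 0.00152). Without the libraries that stood apart the log2 fold change of Atf4 was -0.80 in EphrinB2 cells and -0.71 averaged. That fit keeps 1 EphrinB2 library for each medium, so its spread is that of the vector pairs alone and no p is given. The sign in EphrinB2 cells turned with the libraries that stood apart, which lie farther from vector cells than their partners.

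Atf5, a related factor that is itself an ATF4 target, had the highest mean level of the 7, at 122 FPKM over the 8 libraries. It was listed at 139 and 143 FPKM in vector complete and 84.2 and 85.4 in vector osteogenic medium. The EphrinB2 libraries had 165 and 154 FPKM in complete and 118 and 91.5 in osteogenic medium. All 4 osteogenic libraries were below all 4 complete ones, and Atf5 fell with a log2 fold change of -0.67 (SE 0.13, adjusted p = 0.0143). Cebpb, a C/EBP partner, had 31.0 and 38.7 FPKM in vector complete and 29.9 and 52.8 in vector osteogenic libraries. Its EphrinB2 values were 37.2 and 20.4 FPKM in complete and 129 and 53.2 in osteogenic medium. The value of EphrinB2 osteogenic replicate 1 was the highest of the 8, and the log2 fold change in EphrinB2 cells was 1.55 (SE 0.50, adjusted p = 0.0943). Cebpb shares 312 exon bases (20.7% of its exon length) with Tmem189 on the other strand, and the labels do not give the strand setting of the counting.

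Ddit3, which encodes the stress factor CHOP, ranged from 10.4 to 26.4 FPKM, with 15.7 and 22.1 in vector complete and 10.9 and 11.6 in vector osteogenic libraries. Nupr1, a small stress-induced chromatin protein, had 37.0 and 41.7 FPKM in vector complete and 23.0 and 23.2 in vector osteogenic libraries. In both genes, as in Atf4, both vector osteogenic libraries were below both vector complete ones, while the EphrinB2 pairs were split. Nupr1 had 51.0 and 22.1 FPKM in EphrinB2 complete and 57.5 and 24.7 in EphrinB2 osteogenic libraries. Atf3, a feedback repressor, stayed between 1.28 and 3.39 FPKM, with 51 to 141 estimated reads a library. Cebpg, the C/EBP partner of ATF4, was between 7.31 and 11.3 FPKM. Averaged log2 fold changes of these 4 genes were between -0.43 and 0.28, with adjusted p of 0.12 to 0.63. In the fit of the 4 vector libraries alone Ddit3 (-0.68, adjusted p = 0.0315), Nupr1 (-0.74, adjusted p = 0.00238) and Atf3 (-0.47, adjusted p = 0.0314) fell and Cebpg rose (0.20, adjusted p = 0.0404).

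Of the 6 genes of feedback and growth control, 3 fell and 1 rose, where 9.44% of all genes tested fell and 10.3% rose. Chac1, which degrades glutathione, had 8.64 and 8.86 FPKM in vector complete and 2.65 and 2.75 in vector osteogenic libraries. The EphrinB2 values were 10.1 and 7.30 FPKM in complete and 2.41 and 3.23 in osteogenic medium. Every osteogenic library was at least 2-fold below every complete one, and Chac1 fell with a log2 fold change of -1.37 (SE 0.13, adjusted p = 0.00082). Trib3, a pseudokinase that binds ATF4 and restrains it, fell from 15.1 and 16.4 FPKM to 7.00 and 6.10 in vector cells. Trib3 had 20.3 and 15.1 FPKM in EphrinB2 cells in complete and 9.55 and 6.91 in osteogenic medium, again with no overlap, and the averaged log2 fold change was -1.09 (SE 0.15, adjusted p = 0.00334). Sesn2, a leucine-sensing inhibitor of mTORC1, fell less, with a log2 fold change of -0.72 (SE 0.12, adjusted p = 0.00845). Its 8 values were 15.3 and 15.5 FPKM in vector complete, 10.01 and 10.4 in vector osteogenic, 14.2 and 19.3 in EphrinB2 complete and 7.91 and 8.92 in EphrinB2 osteogenic libraries.

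Ddit4, another inhibitor of mTORC1, was the member of this group that rose. It had 29.7 and 29.2 FPKM in vector complete and 46.8 and 47.9 in vector osteogenic libraries, and 31.9 and 13.4 in EphrinB2 complete and 54.5 and 47.1 in EphrinB2 osteogenic libraries. All osteogenic libraries were above all complete ones, and the averaged log2 fold change was 0.96 (SE 0.25, adjusted p = 0.0409). It passed in neither kind of cell alone, and lost the call without EphrinB2 osteogenic replicate 1. Eif4ebp1, which blocks cap-dependent translation, had 49.8 and 51.0 FPKM in vector complete and 36.0 and 32.0 in vector osteogenic libraries. With 60.6 and 38.0 FPKM in EphrinB2 complete and 73.8 and 38.4 in EphrinB2 osteogenic libraries, the media overlapped in EphrinB2 cells, and the log2 fold change was -0.20 (SE 0.24, adjusted p = 0.594). It fell in the fit of the 4 vector libraries alone (-0.56, adjusted p = 0.00491). Ppp1r15a encodes GADD34, which brings a phosphatase to eIF2. It had 12.8 and 14.9 FPKM in vector complete, 14.4 and 16.0 in vector osteogenic, 15.0 and 8.50 in EphrinB2 complete and 19.6 and 15.4 in EphrinB2 osteogenic libraries, and its log2 fold change was 0.35 (SE 0.19, adjusted p = 0.246).

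**Figure D4:**
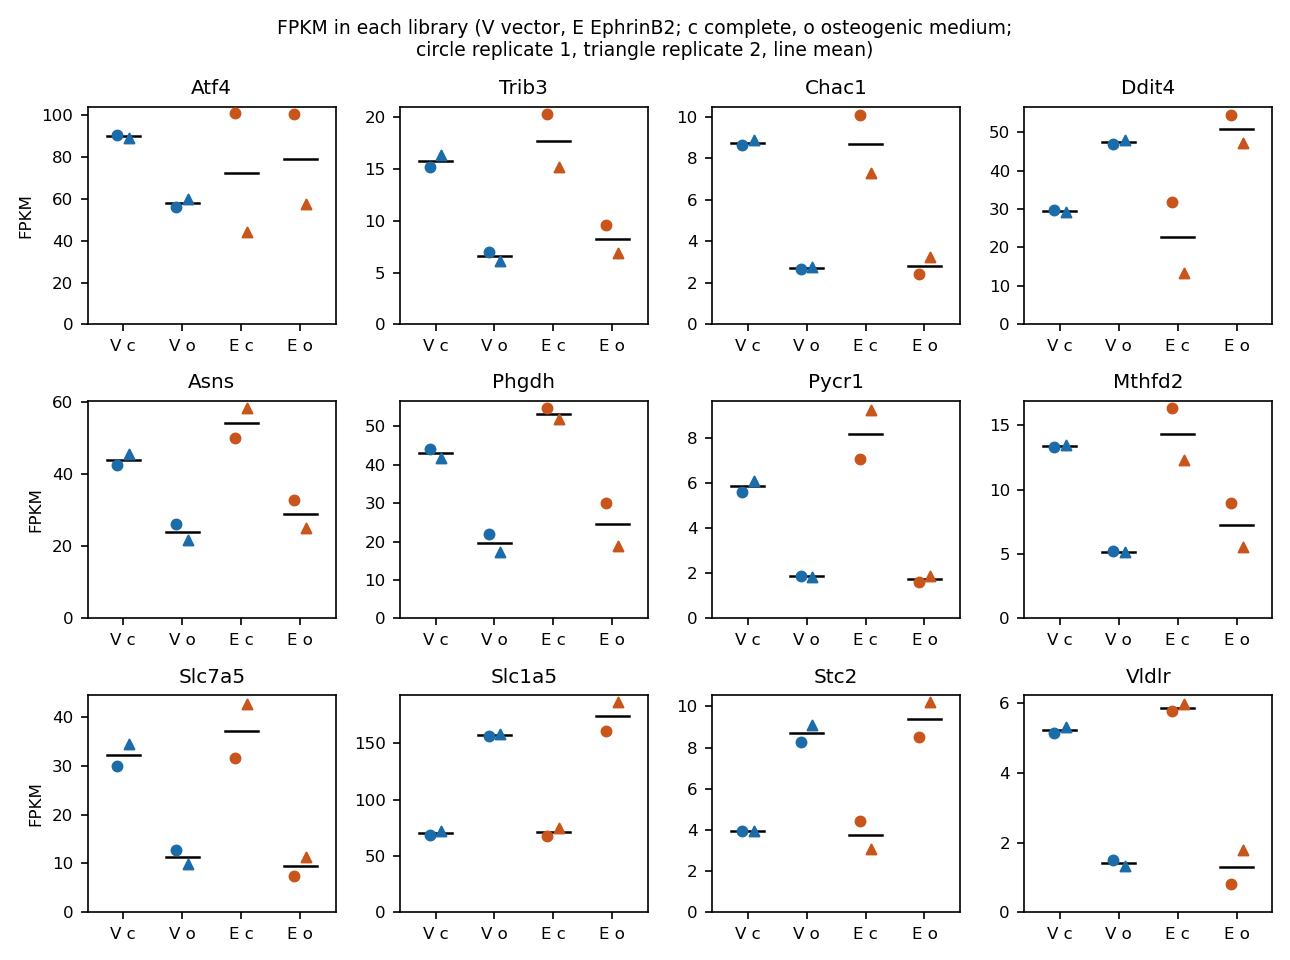
FPKM of 12 of the genes (panels, each with its own axis from 0) in the 4 groups, with circles for replicate 1, triangles for replicate 2 and a line at the group mean. In the panels of Chac1, Trib3, Pycr1, Phgdh, Slc7a5 and Vldlr both osteogenic groups lie below both complete groups, in those of Slc1a5, Stc2 and Ddit4 above them, and the Atf4 panel shows a wide gap between the EphrinB2 libraries of each medium.

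Amino acid and one-carbon synthesis held 11 genes, of which 7 fell and 1 rose (63.6% and 9.09%, against 9.44% and 10.3% of all genes tested). The steps to proline fell together. Pycr1, the last enzyme of mitochondrial proline synthesis (chr11:120635712-120643769, minus strand), had 5.63 and 6.10 FPKM in vector complete and 1.89 and 1.84 in vector osteogenic libraries. In EphrinB2 cells its values were 7.08 and 9.26 FPKM in complete and 1.62 and 1.88 in osteogenic medium. The 4 osteogenic values were close to each other and below all complete ones, and the log2 fold change was -1.49 (SE 0.11, adjusted p = 0.000314), the smallest adjusted p of the 35. Aldh18a1, which starts proline synthesis from glutamate, had 20.2 and 21.3 FPKM in vector complete and 12.2 and 10.8 in vector osteogenic libraries. It had 21.6 and 29.3 FPKM in EphrinB2 complete and 9.94 and 11.1 in EphrinB2 osteogenic libraries, and fell with a log2 fold change of -0.99 (SE 0.13, adjusted p = 0.00306).

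Serine synthesis runs through Phgdh, Psat1 and Psph, and its enzymes moved in different directions. Phgdh, the first step, had 44.1 and 41.8 FPKM in vector complete and 22.1 and 17.2 in vector osteogenic libraries. EphrinB2 libraries had 54.7 and 51.9 FPKM in complete and 30.03 and 18.96 in osteogenic medium, and the log2 fold change was -1.11 (SE 0.17, adjusted p = 0.00559). Psat1, the second step, had 3.44 and 3.68 FPKM in vector complete, 5.03 and 4.92 in vector osteogenic, 3.23 and 2.99 in EphrinB2 complete and 4.64 and 4.52 in EphrinB2 osteogenic libraries. Its osteogenic libraries were all above its complete ones, and it rose with a log2 fold change of 0.42 (SE 0.09, adjusted p = 0.0175). It passed in neither kind of cell alone, and lost the call on a TPM scale (each library scaled to the same FPKM sum). Psph, the last step, had 6.10 and 6.24 FPKM in vector complete and 4.46 and 3.65 in vector osteogenic libraries. In EphrinB2 cells it had 6.99 and 3.80 FPKM in complete and 6.52 and 3.61 in osteogenic medium, where the media overlapped, and its log2 fold change was -0.29 (SE 0.22, adjusted p = 0.401). In the fit of the 4 vector libraries alone Psph fell (-0.51, adjusted p = 0.0153). Psph shares 452 exon bases (10.4% of its exon length) with Cct6a on the other strand, which had a mean of 36.6 FPKM, so reads of Cct6a may be counted in it.

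In mitochondrial one-carbon metabolism, Shmt2 splits serine to glycine and Mthfd2 oxidises the carbon unit it releases. Mthfd2 fell from 13.3 and 13.5 FPKM to 5.23 and 5.16 in vector cells. Its levels in EphrinB2 cells were 16.3 and 12.3 FPKM in complete and 8.93 and 5.52 in osteogenic medium. The log2 fold change was -1.07 (SE 0.16, adjusted p = 0.00549) averaged, -1.21 (SE 0.23, adjusted p = 0.0253) in vector cells and -0.92 (SE 0.23, adjusted p = 0.0503) in EphrinB2 cells. Shmt2 had 20.3 and 21.5 FPKM in vector complete and 13.9 and 13.2 in vector osteogenic libraries. Its EphrinB2 values were 23.1 and 20.1 FPKM in complete and 16.9 and 12.5 in osteogenic medium, and it fell in the averaged test with -0.56 (SE 0.13, adjusted p = 0.0246).

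Asns, which makes asparagine and is a standard reporter of this response, had 42.5 and 45.6 FPKM in vector complete and 26.3 and 21.7 in vector osteogenic libraries. The EphrinB2 libraries had 50.2 and 58.6 FPKM in complete and 33.0 and 25.2 in osteogenic medium. No osteogenic library reached a complete one, and Asns fell with a log2 fold change of -0.87 (SE 0.14, adjusted p = 0.00676). Gpt2, a mitochondrial alanine transaminase, had 2.87 and 2.91 FPKM in vector complete, 2.16 and 2.08 in vector osteogenic, 2.86 and 3.20 in EphrinB2 complete and 2.31 and 1.85 in EphrinB2 osteogenic libraries. It fell in the averaged test, and its log2 fold change of -0.36 (SE 0.10, adjusted p = 0.0471) lay close to the threshold. Got1, the cytosolic aspartate transaminase, stayed between 12.9 and 17.04 FPKM with a log2 fold change of -0.02 (SE 0.12, adjusted p = 0.943). Cth, which makes cysteine by transsulfuration, was low, at 0.697 to 1.60 FPKM and 40 to 83 estimated reads a library, with a log2 fold change of -0.36 (SE 0.12, adjusted p = 0.0839). In the fit of the 4 vector libraries alone Cth fell (-0.37, adjusted p = 0.0388).

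Amino acid transport held 9 genes, of which 8 were tested, 4 fell and 1 rose, against 9.44% and 10.3% of all genes tested. Slc7a5 (chr8:121881150-121907694, minus strand) is the light chain of the LAT1 exchanger that imports leucine and other large neutral amino acids. It had the largest fall of the 35 on the scale of log2(FPKM + 1), which shrinks changes of low genes. In mean FPKM, Vldlr and Pycr1 fell by a larger factor than Slc7a5 in both kinds of cell. Slc7a5 had 29.8 and 34.4 FPKM in vector complete and 12.9 and 9.99 in vector osteogenic libraries. The EphrinB2 libraries had 31.6 and 42.7 FPKM in complete and 7.36 and 11.4 in osteogenic medium, and the log2 fold change was -1.65 (SE 0.18, adjusted p = 0.00143). Its heavy chain Slc3a2, shared with the light chain Slc7a11, had 36.4 and 38.5 FPKM in vector complete and 27.6 and 29.0 in vector osteogenic libraries. In EphrinB2 cells Slc3a2 had 43.7 and 28.4 FPKM in complete and 42.5 and 29.8 in osteogenic medium, where the media overlapped, and the log2 fold change of -0.19 (SE 0.18, adjusted p = 0.506) did not pass. With the 4 vector libraries alone Slc3a2 fell (-0.39, adjusted p = 0.00647). Slc7a11 imports cystine in exchange for glutamate. It was low, at 1.48 and 1.82 FPKM in vector complete, 0.738 and 0.590 in vector osteogenic, 1.26 and 2.07 in EphrinB2 complete and 0.238 and 0.417 in EphrinB2 osteogenic libraries, and it fell with -0.83 (SE 0.14, adjusted p = 0.00825).

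The neutral amino acid exchangers Slc1a4 and Slc1a5, close paralogs, went opposite ways. Slc1a4, which carries serine and alanine, had 21.6 and 23.6 FPKM in vector complete and 11.9 and 11.04 in vector osteogenic libraries. With 25.1 and 30.8 FPKM in EphrinB2 complete and 9.74 and 10.7 in EphrinB2 osteogenic libraries it fell by the averaged test, with a log2 fold change of -1.14 (SE 0.12, adjusted p = 0.00102). Slc1a5 (chr7:16781340-16798274, plus strand), which carries glutamine, had the highest mean level of the transport genes, at 118 FPKM. It was listed at 69.0 and 72.5 FPKM in vector complete and 157 and 158 in vector osteogenic libraries. In EphrinB2 cells it was 68.2 and 74.4 FPKM in complete and 161 and 187 in osteogenic medium, and it rose with a log2 fold change of 1.21 (SE 0.12, adjusted p = 0.000926). Every osteogenic library of Slc1a5 had at least 2-fold the level of every complete one.

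Slc7a1, which imports arginine and lysine, had 9.51 and 9.52 FPKM in vector complete and 6.04 and 5.08 in vector osteogenic libraries. Slc7a1 had, in EphrinB2 cells, 7.95 and 12.7 FPKM in complete and 2.77 and 5.25 in osteogenic medium. Its log2 fold change was -0.94 (SE 0.21, adjusted p = 0.0221) averaged and -1.19 (SE 0.29, adjusted p = 0.0462) in EphrinB2 cells, which both passed, and -0.69 (SE 0.29, adjusted p = 0.265) in vector cells, which did not. The difference between both kinds of cell did not pass either, with an interaction of -0.50 (SE 0.41, adjusted p = 0.746). Slc6a9, a glycine transporter, ranged from 1.47 to 7.01 FPKM and Slc38a2, the SNAT2 transporter of small neutral amino acids, from 16.5 to 26.2 FPKM. Neither passed, with averaged log2 fold changes of -0.60 (SE 0.24, adjusted p = 0.132) and -0.05 (SE 0.13, adjusted p = 0.82). In the fit of the 4 vector libraries alone Slc6a9 just passed as lower (-0.30, adjusted p = 0.0499). Slc7a3, another arginine transporter, had 0.246 to 0.641 FPKM, with 18 to 40 estimated reads a library.

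Of the 3 genes for secreted and surface proteins, 1 fell, 1 rose and 1 did not pass, where 9.44% of all genes tested fell and 10.3% rose. Vldlr, the very low density lipoprotein receptor, had 5.16 and 5.33 FPKM in vector complete and 1.51 and 1.32 in vector osteogenic libraries. The EphrinB2 libraries had 5.78 and 5.98 FPKM in complete and 0.822 and 1.78 in osteogenic medium, and the log2 fold change was -1.49 (SE 0.15, adjusted p = 0.000915). Stc2 (stanniocalcin 2) had 3.97 and 3.95 FPKM in vector complete and 8.29 and 9.08 in vector osteogenic libraries. With 4.43 and 3.06 FPKM in EphrinB2 complete and 8.53 and 10.2 in EphrinB2 osteogenic libraries, it rose with a log2 fold change of 1.05 (SE 0.13, adjusted p = 0.00208). Both Vldlr and Stc2 had no overlap between the media. Gdf15, a secreted stress hormone and a common blood marker of this response, had 5.18 and 6.70 FPKM in vector complete and 3.82 and 4.04 in vector osteogenic libraries. It had 5.31 and 2.19 FPKM in EphrinB2 complete and 6.57 and 3.05 in EphrinB2 osteogenic libraries, where the media overlapped, and a log2 fold change of -0.09 (SE 0.28, adjusted p = 0.844). With the 4 vector libraries alone Gdf15 fell (-0.48, adjusted p = 0.0341).

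EphrinB2 overexpression gave no call among the 35 genes in either medium. In complete medium all adjusted p were 1.0 in limma, with 1 gene, Pycr1, at an unadjusted p under 0.05 (log2 fold change 0.41, SE 0.16). The call rate over all genes tested was 0.0077%, and 167 of 12994 genes had an unadjusted p under 0.05. In osteogenic medium no member had an unadjusted p under 0.05, and the call rate over all genes was 0.0%, with 441 genes at an unadjusted p under 0.05. The log2 difference of Atf4 was -0.42 (SE 0.42, adjusted p = 1.0) in complete and 0.39 (SE 0.42, adjusted p = 0.63) in osteogenic medium. For the interaction of medium and EphrinB2, 0.0% of all genes passed and none of the 35, with no unadjusted p under 0.05 among the 35 and 214 over all genes. The interaction of Atf4 was 0.81 (SE 0.59, adjusted p = 0.746). A p that misses the threshold does not show that both kinds of cell had the same levels, and the SE of the Atf4 difference in 1 medium was 0.42.

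Other genes of the pathway were read in lists chosen with results of these data known, in the comparison averaged over both kinds of cell. Of 14 tested further ATF4 target genes, 6 fell and none rose, with a median log2 fold change of -0.45 against 0.01 over all genes tested. The counts of this and the next lists stand against 9.44% of all genes tested that fell and 10.3% that rose. Pmaip1, a pro-apoptotic BH3-only protein, fell from a mean of 4.78 to 1.68 FPKM in vector cells and from 4.91 to 1.504 in EphrinB2 cells (log2 fold change -1.17, adjusted p = 0.00164). Tnfrsf10b, a death receptor, had -1.11 (adjusted p = 0.00282), and Mthfd1l, a mitochondrial folate enzyme, had -0.66 (adjusted p = 0.00649). Of 20 cytosolic aminoacyl-tRNA synthetases, which charge tRNAs with amino acids, 6 fell and none rose, with a median of -0.32. They were led by Aars (-0.84, adjusted p = 0.00634), Nars (-0.61, adjusted p = 0.0189) and Gars (-0.60, adjusted p = 0.0232).

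Upstream of ATF4, of 16 genes for eIF2, its kinases and its regulators, none passed, with a median of -0.14. An unadjusted p under 0.05 was found for 4 of the 16, and for 4342 of all 12994 genes tested. Eif2ak3, the PERK kinase of the endoplasmic reticulum, had -0.40 (adjusted p = 0.0586), Eif2s3x, an eIF2 subunit, -0.64 (adjusted p = 0.071) and Eif2s2, another subunit, -0.46 (adjusted p = 0.0786). Of 22 tested genes of mTORC1 and amino acid sensing, 1 rose and 1 fell, with a median of 0.02. Sesn1, a paralog of Sesn2, rose from a mean of 9.08 to 19.6 FPKM in vector cells and from 8.59 to 20.5 in EphrinB2 cells (1.11, adjusted p = 0.0034). Sesn3, the remaining sestrin, fell (-0.84, adjusted p = 0.0487). Nprl2, part of the GATOR1 complex, had 0.52 (adjusted p = 0.107).

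Of 17 tested amino acid transporters outside the 36 genes, 4 rose and none fell, with a median of 0.13. Slc38a5, which carries glutamine, went from a mean of 0.215 to 31.5 FPKM in vector cells and from 0.197 to 48.2 in EphrinB2 cells (5.05, adjusted p = 4.75e-06). Slc43a1 (1.13, adjusted p = 0.000972) and Slc43a2 (1.05, adjusted p = 0.0146), carriers of large neutral amino acids like Slc7a5, rose as well. Of these genes, 1, Slc38a9, is also in the mTORC1 list.

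**Figure D5:**
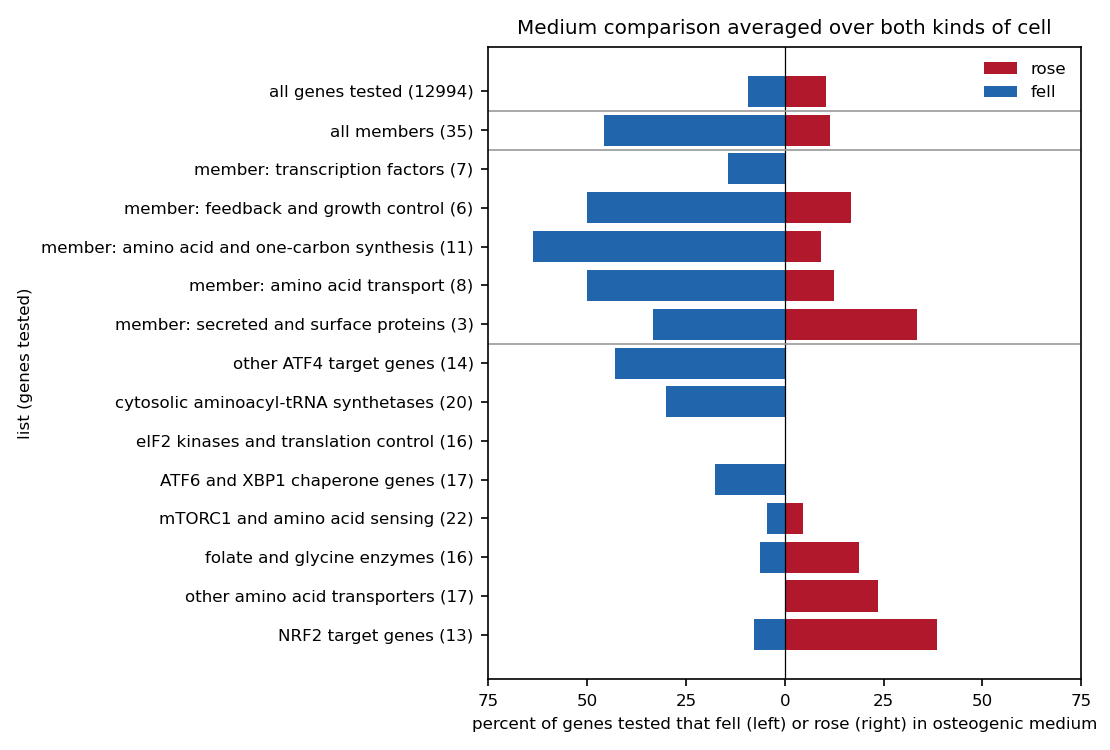
Percent of tested genes that fell (blue bars, to the left) or rose (red bars, to the right) in osteogenic medium, averaged over both kinds of cell, for all genes tested, the 35 genes, their 5 roles and 8 further lists, with the number of genes tested in brackets. The 35 genes show 45.7% fallen and 11.4% risen against 9.44% and 10.3% of all genes tested. The bars of further ATF4 targets, tRNA synthetases, ATF6 and XBP1 chaperone genes and the transcription factor role point to the left only.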

How the data were processed

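Libraries were placed in groups by their labels and numbered within a group in listed order, since no label pairs them. The deposited values are FPKM, which the authors computed from counted reads. The submitters' processing notes name build mm10 and, with no order, DESeq2 1.16.1, featureCounts 1.5.0-p3, HISAT2 2.0.5 and CASAVA. For the annotation, the strand setting and any filter, the sources used here give nothing. Gene positions, exon lengths and symbols are those of GENCODE M21 for GRCm38 (mm10), and 54495 of the 54532 identifiers matched a symbol. Library depth was read from the steps of low FPKM values, which gave whole reads for 98.1% to 98.3% of genes under 50 reads (tolerance 0.02 reads), so read numbers are estimates and cover counting error only.

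Genes with at least 1 FPKM in at least 2 of 8 libraries were tested as log2(FPKM + 1), a scale that shrinks changes of low genes. The 8 libraries were fitted in 1 limma 3.58.1 model (R 4.3.3) with a mean for each group, a mean-variance trend, 4 residual degrees of freedom and two-sided moderated tests. P-values were adjusted over all 12994 genes by the Benjamini-Hochberg method, with a threshold of 0.05. The code was tested on simulated data.

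The genes, the lists and the tests were chosen with earlier results of these data known. Described in full are Atf4, in each comparison the called genes with the largest change (up to 8 in each direction), and in each role the 3 genes with the highest level. Of each further list, up to 3 genes with the smallest p are named, and any other gene is given by its values or range. The alternatives were another pseudocount (0.1), no filter, a TPM scale, median centring, no trend, library weights, fits of the compared groups alone, each library left out, both libraries that stood apart left out and, chosen after seeing the data, removal of the trend on exon length within each library. Reads of overlapping genes on opposite strands and of near-identical copies cannot be told apart. Ddit3 also has a second overlapping identifier, listed at 0 in every library. Promoter windows came from RefSeq (GRCm38.p6) and were searched on both strands.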

Additional observations from a re-analysis of the deposited data

How the results depend on the processing

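The averaged comparison kept all 20 calls with a pseudocount of 0.1 and with median centring. It lost Gpt2 without the mean-variance trend, with library weights and with the length trend removed, Ddit4 and Psat1 on the TPM scale, and Ddit4, Gpt2 and Slc7a1 without the filter. Over 44 called results of single genes and all alternatives, 568 values kept their call, 160 kept only their direction and 0 reversed. The TPM scale moved the median of all genes to -0.15 for the medium difference in EphrinB2 cells and to -0.23 for EphrinB2 against vector in osteogenic medium, while the genes described here had medians of -0.67 and -0.16.

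The count of 10 in vector cells was 5 without the filter, which tests more genes, 30 with library weights, 31 without the libraries that stood apart and 31 with the vector groups alone. Calls over all genes tested moved too, from 4.41% higher and 3.11% lower to 20.4% and 22.1% with library weights, 18.5% and 22.1% without the libraries that stood apart or with the vector groups alone, and 1.49% and 0.988% without the filter. With 1 library left out it lay between 0 and 14. The count of 14 in EphrinB2 cells was 9 without the filter, 4 with library weights (1.49% of all genes higher and 1.09% lower), 25 without the libraries that stood apart (14.0% and 15.7%) and 0 with the EphrinB2 groups alone (0.854% and 0.323%), and lay between 8 and 19 with 1 library left out. The averaged count of 20 was 31 without the libraries that stood apart (22.5% of all genes higher and 25.7% lower) and lay between 13 and 22 with 1 library left out. For EphrinB2 against vector in osteogenic medium, the count of 0 became 2 without EphrinB2 osteogenic replicate 2, when Eif4ebp1 rose (1.10, adjusted p = 0.0469) and Slc38a2 fell (-0.55, adjusted p = 0.0477), with 12.1% of all genes called higher and 9.03% lower. With each other library left out it stayed 0. For the medium comparisons, calls over all genes tested also moved in the fits with 1 library left out. The causes of these shifts were not tested.

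Atf4 passed in no comparison of all libraries, and its sign turned under several alternatives. Leaving out the libraries that stood apart, which lay farther from vector cells than their partners, draws EphrinB2 against vector and the interaction towards 0 by construction, so those values are not evidence of similarity. In EphrinB2 cells its medium difference was -0.0088 on the TPM scale, -0.093 with the length trend removed, -0.80 without the libraries that stood apart and between -0.40 and 0.78 with 1 library left out, where it was -0.40 without EphrinB2 complete replicate 2 and -0.21 without EphrinB2 osteogenic replicate 1. Averaged, it was 0.077 without EphrinB2 complete replicate 1, in a range of -0.51 to 0.077. EphrinB2 against vector gave 0.17 in complete medium without the libraries that stood apart and the same without EphrinB2 complete replicate 2, in a range of -1.01 to 0.17. In osteogenic medium it gave -0.0056 without the libraries that stood apart and without EphrinB2 osteogenic replicate 1, in a range of -0.0056 to 0.79. The interaction was -0.17 without the libraries that stood apart. No paired analysis was possible because no label gives a replicate number shared between groups. With 2 libraries a group, low genes such as Slc7a3, Cth and Atf3 rest on few reads.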

Other observations

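In lists of related pathways, averaged over both kinds of cell, 5 of 13 NRF2 target genes rose and 1 fell in osteogenic medium, with a median log2 fold change of 0.29 against 0.01 over all genes tested, of which 10.3% rose and 9.44% fell. G6pdx, which makes NADPH, rose from a mean of 25.2 to 58.0 FPKM in vector cells and from 22.7 to 58.8 in EphrinB2 cells (limma adjusted p = 0.000477). Hmox1, heme oxygenase, had 1.04 (adjusted p = 0.00609), and Gsr, glutathione reductase, had 0.95 (adjusted p = 0.0117). Both NRF2 and ATF4 are known to act on Slc7a11, which fell. Of 17 chaperone genes of the ATF6 and XBP1 branches of the unfolded protein response, 3 fell (17.6%, against that 9.44%) and none rose, with a median of -0.26. These were Hyou1 (-1.03, adjusted p = 0.0118), Pdia4 (-0.86, adjusted p = 0.0157) and Hsp90b1 (-0.53, adjusted p = 0.0306).

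Of 16 tested folate and glycine enzymes, 3 rose and 1 fell, with a median of 0.11, shares of 18.8% and 6.25% against the same 10.3% and 9.44% over all genes. Glul, which makes glutamine from glutamate, rose from a mean of 37.0 to 243 FPKM in vector cells and from 37.6 to 256 in EphrinB2 cells (2.71, adjusted p = 4.62e-05). Cbs, the first enzyme of transsulfuration, rose from 0.144 to 1.04 FPKM and from 0.255 to 1.24 (0.83, adjusted p = 0.00388). Gldc, which cleaves glycine in mitochondria, fell (-0.72, adjusted p = 0.00867). The glutamine genes Glul, Slc38a5 and Slc1a5 thus all had higher mean levels in both osteogenic groups, while the proline genes Pycr1 and Aldh18a1 had lower ones. Macrophage markers summed to higher levels in the same groups, and their part in these values was not tested.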
